A study of Mus musculus with 8 samples.

Results

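The 46 genes described here carry out or prepare DNA replication in mouse cells: they license and unwind origins, synthesise and join the new strands, load the sliding clamp, supply deoxynucleotides, protect the fork, and rebuild chromatin and its methylation behind it. They were chosen by symbol from these known roles, with earlier results of these data at hand. Their rows in the deposited count table were found by Ensembl gene identifier. The table held a row for 45 of the 46 among its 26062 gene identifiers. Fen1, which encodes the flap endonuclease of the lagging strand, was not analysed here.

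The RNA came from microglia, the resident macrophages of the brain, of the lateral geniculate nucleus (LGN), a thalamic relay that receives the axons of retinal ganglion cells. Wild-type male C57BL/6J mice of 2 to 3 months gave 2 uninjured libraries, 3 taken 1 day after both optic nerves had been crushed and 3 taken at 3 days, and cells were captured on magnetic beads against CD11b, a surface integrin of myeloid cells. No transgene or Cre was named for any group. Whether each library was prepared from 1 animal or from a pool is not stated, so the p-values speak only of how far these libraries differ among themselves, part of which may be technical.

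DNA replication runs in S phase and starts at origins that were licensed in the preceding G1 phase, when the origin recognition complex, Cdc6 and Cdt1 place the ring of Mcm2 to Mcm7 on DNA. In S phase Cdc45 and the GINS complex bind this ring to form the active helicase, polymerase alpha with primase starts each strand, and polymerases epsilon and delta extend it with the clamp Pcna. Transcripts of many of these genes are made under E2F control as cells leave quiescence, and microglia of the adult brain are long-lived cells that rarely divide at rest and can divide locally after injury.

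Levels below are CPM, counts in each 1000000 counts of a library, scaled between libraries by the trimmed mean of M values (TMM), and fold changes are log2 values from edgeR's quasi-likelihood test, with p-values adjusted by the Benjamini-Hochberg method over the 17390 genes tested. A gene was said to rise or fall only where the adjusted p was under 0.05. The libraries held 12700098 to 17994861 counts, of which 7128 to 8715 fell on the 45 genes in the uninjured and 1 day libraries and 21907 to 22052 in the 3 day libraries. All 45 genes passed the filter on low counts, 44 of them on the uninjured and 1 day libraries alone. Chaf1a passed only with the 3 day libraries, where it was high.

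The labelled cell type was checked against its markers. All 9 microglial markers were detected. Their summed level was 7164 to 9417 CPM in the uninjured libraries, 10303 to 12982 CPM at 1 day and 6936 to 8492 CPM at 3 days. Against uninjured, 1 of the 9 rose at 1 day, beside 0.61% of all tested genes, and 2 fell at 3 days, beside 0.983%. From 1 to 3 days 3 of the 9 fell, beside 5.75%. In each comparison 0 were called in the other direction. Lymphocyte markers summed to at most 2.48 CPM in any library, and of the progenitor markers Dcx, Eomes and Sox11 none reached 8 counts in a library. In bulk RNA a change in the number of cells of a type cannot be told apart from a change in RNA per cell, which holds for every level below.

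At 3 days after crush the replication genes stood higher as a group. Their summed level was 455 and 449 CPM in the uninjured libraries, 555, 651 and 517 CPM at 1 day and 1441, 1631 and 1779 CPM at 3 days. The 3 day libraries lay above all others, and their mean was 3.58 times the uninjured mean, against 1.27 times at 1 day. The share of counts on mitochondrially encoded genes was 22.5% and 21.3% in the uninjured libraries, 13.6% to 21.9% at 1 day and 22.8% to 30.3% at 3 days, so that this share was also highest at 3 days. With those genes taken out before scaling, and the mean library size kept the same, the mean summed level of the replication genes was 459 CPM uninjured, 559.9 CPM at 1 day and 1636 CPM at 3 days. At 3 days 19 of 45 genes rose against uninjured, beside 2.49% of all tested genes, and 0 fell, beside 0.983%. The 19 include Chaf1a, which passed the low count filter only with the 3 day libraries. No gene of the 45 was lower at an unadjusted p under 0.05, and DESeq2 and limma-voom also called 0 as falling. The median log2 fold change was 2.16 over the 45 genes and 0.00 over all tested genes. All 45 fold changes were positive, but that of Rfc5 was 0.01 and turned negative with DESeq2, with relative log expression or library size scaling and with no filter.

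Fitted sizes at 3 days ranged widely over the 45 genes, whether or not they passed the test. At least 2-fold higher levels were fitted for 36 of them, at least 4-fold for 24 and at least 8-fold for 12, beside 12.5%, 3.81% and 1.6% of all tested genes. In 40 of the 45 genes every 3 day library lay above every uninjured library, beside 20.1% of all tested genes, and the exceptions were Gins3, Gins4, Pcna, Rfc4 and Rfc5. The count of 19 rested partly on single libraries. Leaving out uninjured replicate 1 gave 9, uninjured replicate 2 or 3 day replicate 3 gave 11, and 3 day replicate 1 or 2 gave 14. It was 26 without 1 day replicate 1 or replicate 2, and 30 with DESeq2. In all 8 refits that dropped a library, Clspn, Dnmt1, Lig1, Mcm5, Mcm6, Pole and Uhrf1 still rose. Over all genes 433 rose and 171 fell at 3 days, a split that was 317 and 244 when only library size was used for scaling.

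**Figure D1:**
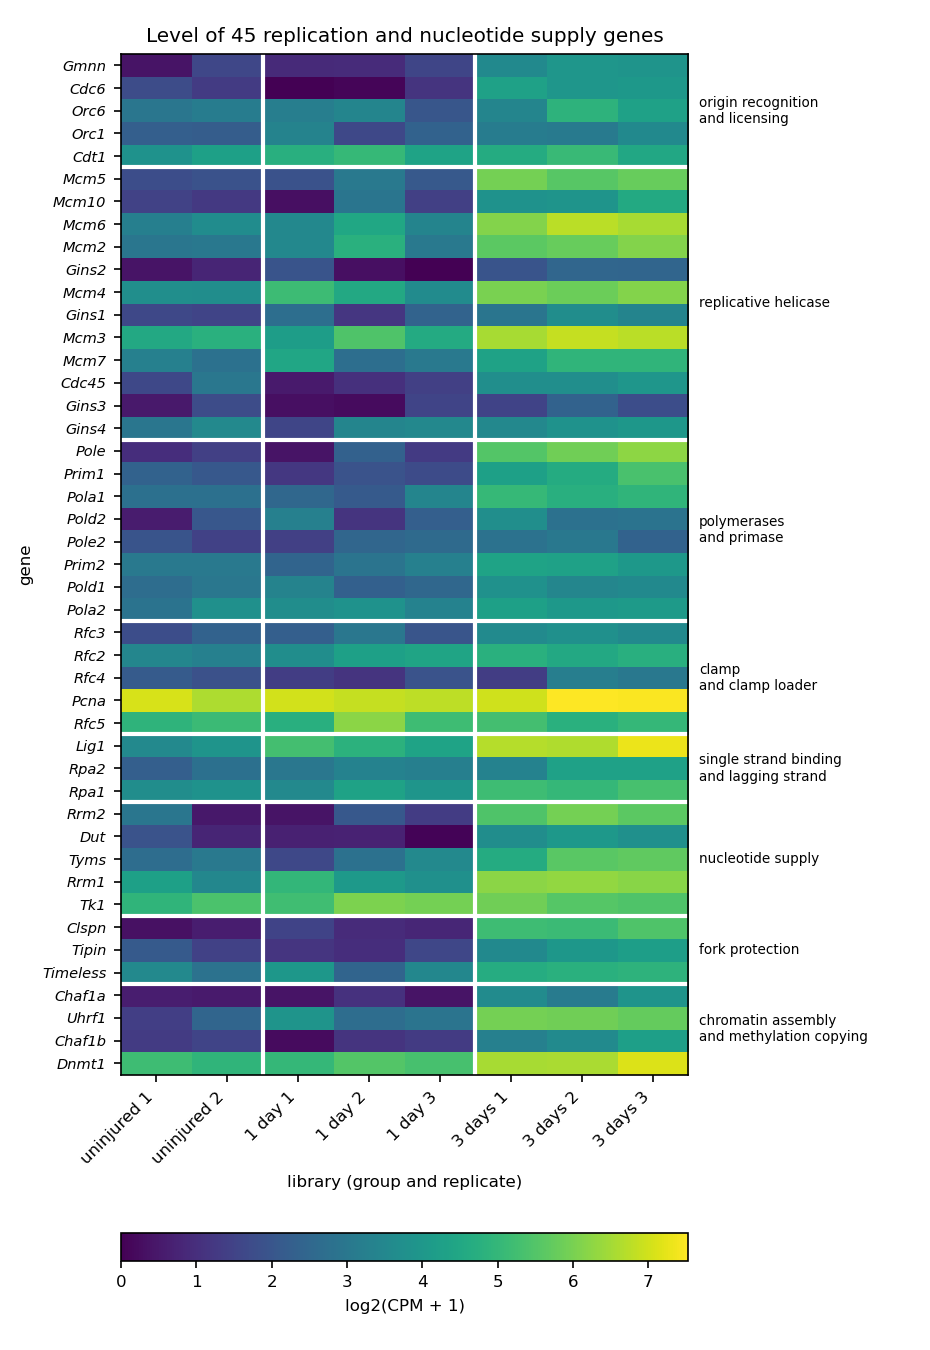
Level of each of the 45 genes (one line per gene, ordered by role) in each of the 8 libraries (columns, by group and replicate), as log2(CPM + 1) on the colour scale. The 3 day columns are brighter for most genes, while the lines of Pcna, Rfc5 and Tk1 differ little between groups.

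Promoter sequences are shown for those genes with a window that rose whichever library was left out and for Rfc5, the gene with the smallest fold change, because these genes moved together or stood apart and E2F sites are the known shared element of replication promoters. The windows are those of RefSeq on GRCm38.p6, from 250 bases before to 50 bases after the annotated start, and 36 of the 45 genes matched, with 43 windows. These windows were searched on both strands for the E2F words TTTCGCGC, TTTGGCGC, TTTCCCGC and TTTGCCGC, and matches may overlap each other. Gins1, Gins2, Gins4, Gmnn, Mcm4, Pole, Prim2, Rfc2 and Tipin had no matched window. The coordinates are chr4:126556730-126557029 (plus strand) for Clspn, chr7:13278576-13278875 (plus strand) for Lig1, chr8:75109259-75109558 (plus strand) for Mcm5, chr1:128359656-128359955 (minus strand) for Mcm6, chr17:56304063-56304362 (plus strand) for Uhrf1, chr9:20952574-20952873 (minus strand) for Dnmt1 and chr5:117388974-117389273 (minus strand) for Rfc5. For Lig1, Uhrf1 and Dnmt1, which have several annotated starts, the window with a match is shown, and their other windows held no match. Each line runs 5′ to 3′ on the gene's strand, and capitals mark the E2F words.
Clspn: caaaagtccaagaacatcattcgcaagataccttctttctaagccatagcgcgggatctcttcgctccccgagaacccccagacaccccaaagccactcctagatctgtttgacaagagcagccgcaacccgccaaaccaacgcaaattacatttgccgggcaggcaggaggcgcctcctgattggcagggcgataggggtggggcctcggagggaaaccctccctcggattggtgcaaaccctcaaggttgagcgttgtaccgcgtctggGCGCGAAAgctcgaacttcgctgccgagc
Lig1: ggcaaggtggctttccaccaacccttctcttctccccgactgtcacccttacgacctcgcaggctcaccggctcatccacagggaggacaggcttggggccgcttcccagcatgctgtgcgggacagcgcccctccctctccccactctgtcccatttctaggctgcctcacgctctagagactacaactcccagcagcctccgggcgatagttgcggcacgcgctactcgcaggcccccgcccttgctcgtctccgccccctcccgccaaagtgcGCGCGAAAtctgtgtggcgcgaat
Mcm5: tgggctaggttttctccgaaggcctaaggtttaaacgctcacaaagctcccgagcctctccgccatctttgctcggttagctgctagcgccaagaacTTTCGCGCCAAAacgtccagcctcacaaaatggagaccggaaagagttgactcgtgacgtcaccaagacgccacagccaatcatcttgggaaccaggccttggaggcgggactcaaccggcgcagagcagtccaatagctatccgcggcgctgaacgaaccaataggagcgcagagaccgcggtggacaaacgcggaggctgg
Mcm6: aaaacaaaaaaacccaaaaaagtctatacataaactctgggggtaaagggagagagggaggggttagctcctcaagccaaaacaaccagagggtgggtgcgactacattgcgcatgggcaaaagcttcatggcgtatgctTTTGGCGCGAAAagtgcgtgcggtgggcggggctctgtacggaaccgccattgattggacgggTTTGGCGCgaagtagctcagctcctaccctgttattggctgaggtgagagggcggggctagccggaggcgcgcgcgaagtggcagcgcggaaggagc
Uhrf1: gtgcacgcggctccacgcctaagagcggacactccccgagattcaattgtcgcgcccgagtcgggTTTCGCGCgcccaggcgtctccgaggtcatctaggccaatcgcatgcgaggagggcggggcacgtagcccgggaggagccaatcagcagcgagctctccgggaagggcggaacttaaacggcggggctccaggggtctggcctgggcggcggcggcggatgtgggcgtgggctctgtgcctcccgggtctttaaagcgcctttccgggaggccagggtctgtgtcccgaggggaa
Dnmt1: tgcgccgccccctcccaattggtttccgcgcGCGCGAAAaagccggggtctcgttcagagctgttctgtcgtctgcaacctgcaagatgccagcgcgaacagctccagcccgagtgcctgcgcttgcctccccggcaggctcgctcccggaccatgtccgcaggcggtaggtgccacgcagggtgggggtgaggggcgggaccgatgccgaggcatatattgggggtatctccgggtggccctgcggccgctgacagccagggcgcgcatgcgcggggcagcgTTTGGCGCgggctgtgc
Rfc5: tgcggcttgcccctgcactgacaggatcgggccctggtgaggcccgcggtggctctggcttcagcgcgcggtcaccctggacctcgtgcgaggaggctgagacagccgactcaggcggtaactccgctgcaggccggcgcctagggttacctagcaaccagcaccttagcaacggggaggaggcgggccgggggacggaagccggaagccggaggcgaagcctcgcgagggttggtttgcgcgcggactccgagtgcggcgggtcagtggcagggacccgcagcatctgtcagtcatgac

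Among the windows shown, that of Mcm6 held 3 matches, Mcm5 and Dnmt1 2 each, Clspn, Lig1 and Uhrf1 1 each, and Rfc5 none. Because the Lig1, Uhrf1 and Dnmt1 windows were picked for a match, these counts cannot set those genes against Rfc5. Chaf1a, Mcm2, Prim1, Rpa1, Rrm1 and Tyms also rose at 3 days, and their windows held no match. Over the replication genes 16 of 43 windows (37.2%) held a match, against 3.73% of 14573 windows of tested genes and 2.26% of all 32851 windows. The windows of genes that rose at 3 days held a match in 8 of 19 cases (42.1%), and those of genes that did not pass the test in 8 of 24 (33.3%). Of the 23 matches 14 lay within 100 bases before to 50 bases after the start. The median GC content was 58.3% in the replication windows and 60.0% in the windows of tested genes. A match describes the sequence only, and binding was not measured here.

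Among the licensing genes 1 of 5 rose at 3 days, beside 2.49% of all tested genes. Their summed level was 30.02 ± 4.83 CPM uninjured (SD, n = 2), 39.7 ± 8.45 CPM at 1 day (SD, n = 3) and 83.5 ± 13.5 CPM at 3 days (SD, n = 3). Gmnn encodes geminin, which binds Cdt1 and blocks a new round of licensing. It measured 0.321 and 2.06 CPM in the uninjured libraries, 0.857, 0.883 and 1.97 CPM at 1 day and 10.8, 14.6 and 14.04 CPM at 3 days. Its log2 fold change at 3 days was 3.45 (SE 0.81, adjusted p = 0.0295) by edgeR's quasi-likelihood test, and the 3 day libraries stood above all 5 others. The call was lost without uninjured replicate 1 or any 3 day library, where the adjusted p reached 0.306. The fold change was 2.66 without uninjured replicate 1 and 5.32 without uninjured replicate 2.

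Cdc6, the ATPase that loads the Mcm ring with Cdt1, was low in the 1 day libraries. Its levels were 2.35 and 1.49 CPM uninjured, 0, 0.0802 and 1.17 CPM at 1 day, and 18.9, 14.4 and 15.3 CPM at 3 days, and the library at 0 allows a level of up to 0.234 CPM. All 3 day libraries were higher than all others, but against uninjured the adjusted p was 0.0941 in edgeR's quasi-likelihood test, while DESeq2 and limma-voom called it. Against 1 day Cdc6 rose by 5.17 log2 units (SE 0.90, adjusted p = 0.00237), a call that held with each library left out, at 8.40 without 1 day replicate 3. Cdt1, its partner in loading, lay at 13.3 to 18.3 CPM uninjured, 19.7 to 31.7 CPM at 1 day and 22.03 to 33.2 CPM at 3 days, so the 1 day and 3 day libraries overlapped. Orc1, the largest subunit of the origin recognition complex, lay at 3.66 to 3.85 CPM uninjured, 2.09 to 9.42 CPM at 1 day and 7.59 to 10.9 CPM at 3 days, and Orc6, its smallest subunit, at 6.78 to 7.93 CPM uninjured, 3.02 to 9.79 CPM at 1 day and 9.74 to 28.1 CPM at 3 days. Neither passed edgeR's quasi-likelihood test at 3 days, and DESeq2 called Orc6 against 1 day. Reads of Orc1 and Orc6 cannot be assigned to a strand here, and 376 and 171 bases of their exons overlap a gene on the opposite strand.

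Of the 12 helicase genes 5 rose at 3 days, beside 2.49% of all tested genes, all 5 of them subunits of the Mcm2 to Mcm7 ring. The summed level of the 12 was 82.2 ± 11.3 CPM uninjured (SD, n = 2), 112 ± 31.8 CPM at 1 day (SD, n = 3) and 454 ± 46.8 CPM at 3 days (SD, n = 3). Mcm5 had 2.46 and 2.73 CPM in the uninjured libraries, 2.73, 7.30 and 3.33 CPM at 1 day and 61.5, 46.98 and 53.4 CPM at 3 days, and its log2 fold change was 4.37 (SE 0.47, adjusted p = 0.000150) by edgeR's quasi-likelihood test. Mcm6 had 8.44 and 11.7 CPM in the uninjured libraries, 10.4, 21.3 and 9.55 CPM at 1 day and 69.3, 106 and 92.9 CPM at 3 days, and its fold change on the log2 scale was 3.15 (SE 0.39, adjusted p = 0.000415). For both, every 3 day library stood above every other library, and both calls held with each library left out.

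Mcm2 measured 6.78 and 7.06 CPM in the uninjured libraries, 10.4, 26.7 and 7.33 CPM at 1 day and 48.6, 54.5 and 69.8 CPM at 3 days. The 1 day libraries were spread, with replicate 2 well above the others, and the 3 day libraries lay above all of them. Its log2 fold change at 3 days was 3.06 (SE 0.49, adjusted p = 0.00309) by edgeR's quasi-likelihood test. Mcm3 had 22.3 and 26.7 CPM uninjured, 17.1, 43.2 and 23.2 CPM at 1 day, and 91.99, 117 and 107 CPM at 3 days. Mcm4 had 12.1 and 11.8 CPM uninjured, 34.97, 22.2 and 11.4 CPM at 1 day, and 63.03, 55.7 and 68.9 CPM at 3 days. Both rose at 3 days, and without uninjured replicate 1 the calls of Mcm2, Mcm3 and Mcm4 were lost, with adjusted p = 0.0564, 0.0696 and 0.0676.

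Mcm7, the remaining subunit of the ring, had 8.71 and 6.08 CPM in the uninjured libraries, 20.95, 5.62 and 7.33 CPM at 1 day and 19.2, 29.4 and 29.4 CPM at 3 days. Its replicate 1 at 1 day overlapped the 3 day libraries, and it did not pass the test (adjusted p = 0.0844, edgeR's quasi-likelihood test). DESeq2 and limma-voom called it. Exons of Mcm7 overlap those of Cops6 and Ap4m1 on the opposite strand over 385 bases.

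None of the 4 GINS genes, Cdc45 or Mcm10 passed edgeR's quasi-likelihood test at 3 days against uninjured, whereas DESeq2 called Gins1 and Mcm10 and limma-voom called Mcm10. These 6 genes are the partners that turn the loaded ring into the active helicase. Cdc45 had 2.08 and 6.95 CPM uninjured, 0.467, 1.04 and 1.66 CPM at 1 day, and 12.1, 12.1 and 14.4 CPM at 3 days, so that its 1 day libraries were the lowest and its 3 day libraries the highest. Against 1 day it rose by 3.58 log2 units (SE 0.64, adjusted p = 0.00260) in edgeR's quasi-likelihood test. Mcm10, which helps start unwinding, had 1.82 and 1.39 CPM uninjured, 0.234, 6.58 and 1.66 CPM at 1 day, and 13.3, 13.8 and 22.99 CPM at 3 days. It rose by 2.57 log2 units (SE 0.77, adjusted p = 0.0462) against 1 day, and that call was lost when any library other than 1 day replicate 1 or replicate 2 was left out (adjusted p up to 0.185). Without 1 day replicate 2 it was 4.09.

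The GINS genes were low in count and variable. Gins1 lay at 1.91 to 2.08 CPM uninjured, 1.28 to 5.61 CPM at 1 day and 6.60 to 11.9 CPM at 3 days. Gins2 lay at 0.321 to 0.721 CPM uninjured, 0 to 2.88 CPM at 1 day and 2.88 to 4.62 CPM at 3 days, with 0 counts in 1 day replicate 3, which allows up to 0.185 CPM. Gins3 lay at 0.427 to 2.37 CPM uninjured, 0.160 to 1.91 CPM at 1 day and 1.83 to 4.17 CPM at 3 days. Gins4 lay at 6.78 to 10.7 CPM uninjured, 1.95 to 10.5 CPM at 1 day and 10.5 to 14.9 CPM at 3 days. The 3 day libraries were above the uninjured libraries for Gins1 and Gins2 and overlapped them for Gins3 and Gins4. Of the 4097 exonic bases of Gins2, 2758 overlap Gse1 on the opposite strand, so its count is uncertain.

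Among the 8 polymerase and primase genes 3 rose at 3 days, beside 2.49% of all tested genes. The summed level of the 8 was 37.9 ± 6.59 CPM uninjured (SD, n = 2), 42.5 ± 2.58 CPM at 1 day (SD, n = 3) and 176 ± 18.2 CPM at 3 days (SD, n = 3). Pole, the catalytic subunit of polymerase epsilon on the leading strand, measured 0.962 and 1.70 CPM in the uninjured libraries, 0.312, 4.09 and 1.42 CPM at 1 day and 44.7, 58.9 and 74.5 CPM at 3 days. Its log2 fold change was 5.47 (SE 0.73, adjusted p = 0.000794) by edgeR's quasi-likelihood test, and the call held with each library left out. Pole2, its accessory subunit, had 2.88 and 1.75 CPM uninjured, 1.71, 4.65 and 5.05 CPM at 1 day, and 6.15, 7.07 and 4.20 CPM at 3 days. The 1 day libraries of Pole2 overlapped the 3 day libraries, and it did not pass the test.

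Polymerase alpha and primase form a complex of 4 subunits that makes the primers. Prim1, the catalytic primase subunit, had 4.17 and 3.25 CPM in the uninjured libraries, 1.32, 2.81 and 2.28 CPM at 1 day and 18.3, 24.05 and 39.9 CPM at 3 days, and its fold change on the log2 scale was 2.88 (SE 0.52, adjusted p = 0.00659) by edgeR's quasi-likelihood test. Pola1, the catalytic subunit of polymerase alpha, had 5.82 and 5.82 CPM in the uninjured libraries, 4.75, 3.37 and 9.79 CPM at 1 day and 32.3, 26.1 and 29.6 CPM at 3 days, and its fold change on the log2 scale was 2.33 (SE 0.48, adjusted p = 0.0141). The 3 day libraries of both stood clear of all others. Prim1 lost its call without either uninjured library or 3 day replicate 3 (adjusted p up to 0.0920), and Pola1 without either uninjured library, 3 day replicate 1 or replicate 3 (up to 0.167).

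The partner subunits had smaller fitted fold changes. Prim2, the regulatory primase subunit, lay at 7.21 to 7.31 CPM uninjured, 4.36 to 8.81 CPM at 1 day and 15.2 to 19.8 CPM at 3 days. Pola2, the regulatory subunit of polymerase alpha, lay at 6.36 to 12.7 CPM uninjured, 9.06 to 13.4 CPM at 1 day and 15.1 to 18.4 CPM at 3 days. Neither passed edgeR's quasi-likelihood test against uninjured, though every 3 day library was above every other library, and DESeq2 called Prim2. Prim2 rose against 1 day by 1.45 log2 units (SE 0.39, adjusted p = 0.0282) in edgeR's quasi-likelihood test, a call lost without 1 day replicate 1 or any 3 day library (adjusted p up to 0.107).

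Polymerase delta synthesises the lagging strand. Pold1, its catalytic subunit, lay at 5.40 to 6.95 CPM uninjured, 3.93 to 9.42 CPM at 1 day and 10.1 to 12.9 CPM at 3 days. Pold2, an accessory subunit, lay at 0.481 to 3.14 CPM uninjured, 1.20 to 8.80 CPM at 1 day and 5.96 to 12.2 CPM at 3 days. Neither passed the test in any of the 3 comparisons, and in both the replicate 1 library at 1 day was the highest of its group.

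The clamp and its loader had the smallest ratio of summed levels at 3 days against uninjured, 1.46. Pcna, the ring that tethers polymerases to DNA, had 133 and 95.6 CPM in the uninjured libraries, 128, 115 and 108 CPM at 1 day and 126, 184 and 179 CPM at 3 days. Its groups overlapped, and the log2 fold change at 3 days was 0.51 (SE 0.21, adjusted p = 0.241) by edgeR's quasi-likelihood test. Pcna alone made up 25.3% of the summed level of the 45 genes in uninjured libraries, 20.4% at 1 day and 10.1% at 3 days. A Pcna pseudogene, Pcna-ps2, was counted separately with 1181 counts over the 8 libraries, and reads shared with it cannot be placed here.

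The clamp loader opens Pcna and places it on DNA. Rfc2 had 9.99 and 8.81 CPM in the uninjured libraries, 11.99, 18.6 and 20.1 CPM at 1 day and 26.5, 22.1 and 26.1 CPM at 3 days. Every 1 day library lay above every uninjured library, but the gene was not called at 1 day. The log2 fold change there was 0.85 (adjusted p = 0.275, edgeR's quasi-likelihood test). Rfc2 was the only gene of this role to rise at 3 days, beside 2.49% of all tested genes. Its fold change on the log2 scale was 1.41 (SE 0.36, adjusted p = 0.0465) by edgeR's quasi-likelihood test. The call was lost when any uninjured or 3 day library was left out (adjusted p up to 0.318). It was also lost with relative log expression scaling, with library size scaling, with no filter and with the replicate number added to the fit. Exons of Rfc2 overlap Lat2 on the opposite strand over 952 of 6303 bases.

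Rfc5 had 29.1 and 33.9 CPM in the uninjured libraries, 26.01, 74.1 and 35.4 CPM at 1 day and 37.7, 26.2 and 31.1 CPM at 3 days. The 3 day and uninjured libraries overlapped, and 1 day replicate 2 was the highest of the 8. The log2 fold change at 3 days was 0.01 (SE 0.37, adjusted p = 0.997) by edgeR's quasi-likelihood test. Rfc3 lay at 2.40 to 4.12 CPM uninjured, 2.96 to 6.90 CPM at 1 day and 10.8 to 12.7 CPM at 3 days and Rfc4 at 2.68 to 3.47 CPM uninjured, 1.20 to 2.83 CPM at 1 day and 1.57 to 8.41 CPM at 3 days. Neither passed edgeR's quasi-likelihood test in any comparison, but DESeq2 called Rfc3 at 3 days both against uninjured and against 1 day. The summed level of the 5 genes was 162 ± 23.4 CPM uninjured (SD, n = 2), 185 ± 26.1 CPM at 1 day (SD, n = 3) and 237 ± 29.5 CPM at 3 days (SD, n = 3).

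The role of single-strand binding and lagging-strand joining was carried by Lig1, Rpa1 and Rpa2. Lig1, the ligase that joins Okazaki fragments, had 10.6 and 14.01 CPM in the uninjured libraries, 37.9, 27.4 and 19.6 CPM at 1 day and 103, 98.5 and 159 CPM at 3 days. The 3 groups did not overlap, with 1 day libraries between the others. Lig1 had the log2 fold change 1.20 (SE 0.31, adjusted p = 0.0658) at 1 day and 3.29 (SE 0.34, adjusted p = 0.000101) at 3 days by edgeR's quasi-likelihood test. The 3 day call held with each library left out.

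Rpa1 and Rpa2 are subunits of replication protein A, which coats single-stranded DNA. Rpa1 had 11.97 and 13.4 CPM in the uninjured libraries, 10.7, 19.4 and 14.4 CPM at 1 day and 35.4, 31.4 and 39.5 CPM at 3 days, and its fold change on the log2 scale was 1.48 (SE 0.34, adjusted p = 0.0282) at 3 days by edgeR's quasi-likelihood test. The 3 day libraries were the highest, and the call was lost when any uninjured or 3 day library was left out (adjusted p up to 0.316). The Rpa1 call was also lost with the replicate number added to the fit. Rpa2 had 3.90 and 5.92 CPM uninjured, 6.85, 9.15 and 8.50 CPM at 1 day, and 9.15, 18.8 and 18.96 CPM at 3 days. It did not pass edgeR's quasi-likelihood test, DESeq2 called it at 3 days against uninjured, and 3 day replicate 1 was level with the highest 1 day library.

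Of the 5 nucleotide supply genes 2 rose at 3 days, beside 2.49% of all tested genes. The summed level of the 5 was 61.2 ± 2.50 CPM uninjured (SD, n = 2), 82.2 ± 10.7 CPM at 1 day (SD, n = 3) and 228 ± 18.2 CPM at 3 days (SD, n = 3). Rrm1, the large subunit of ribonucleotide reductase, had 18.5 and 10.1 CPM in the uninjured libraries, 30.4, 15.4 and 12.8 CPM at 1 day and 73.9, 77.9 and 71.8 CPM at 3 days, and its fold change on the log2 scale was 2.38 (SE 0.39, adjusted p = 0.00362) by edgeR's quasi-likelihood test. The 3 day libraries stood above all others, and the call was lost without uninjured replicate 2 (adjusted p = 0.0539). Tyms, thymidylate synthase, had 5.45 and 7.21 CPM in the uninjured libraries, 2.10, 5.94 and 10.6 CPM at 1 day and 23.7, 47.9 and 50.7 CPM at 3 days, and its fold change on the log2 scale was 2.69 (SE 0.57, adjusted p = 0.0181). It lost its call without either uninjured library, 3 day replicate 2 or replicate 3 (adjusted p up to 0.214).

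Rrm2, the small subunit that carries the radical of the reductase, had 6.73 and 0.412 CPM in the uninjured libraries, 0.312, 3.21 and 1.54 CPM at 1 day and 43.2, 60.98 and 48.7 CPM at 3 days. The uninjured libraries differed from each other more than for Rrm1, and the adjusted p at 3 days was 0.0717 in edgeR's quasi-likelihood test although all 3 day libraries were far above the rest. It was called without uninjured replicate 1 or 1 day replicate 1, with DESeq2 and with limma-voom. Against 1 day Rrm2 rose by 4.92 log2 units (SE 0.91, adjusted p = 0.00734). This call was lost with no filter on low counts (adjusted p = 0.0814, edgeR's quasi-likelihood test).

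Dut, the dUTPase that keeps uracil out of DNA, was lowest at 1 day. Its levels were 2.78 and 0.721 CPM uninjured, 0.623, 0.642 and 0.0616 CPM at 1 day, and 11.96, 15.1 and 12.7 CPM at 3 days. Against uninjured it did not pass at either time in edgeR, while DESeq2 and limma-voom called it at 3 days. It rose by 4.92 log2 units (SE 0.79, adjusted p = 0.00137) from 1 to 3 days in edgeR's quasi-likelihood test. Tk1, the thymidine kinase of the salvage route, had 29.5 and 40.95 CPM uninjured, 36.6, 65.1 and 61.4 CPM at 1 day, and 58.1, 45.4 and 42.7 CPM at 3 days. Its groups at 1 and 3 days overlapped, and it passed the test in none of the 3 comparisons.

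Fork protection genes had the highest ratio of summed levels, 6.92 at 3 days. Their sum was 11.4 ± 4.11 CPM uninjured (SD, n = 2), 12.3 ± 5.85 CPM at 1 day (SD, n = 3) and 78.6 ± 9.51 CPM at 3 days (SD, n = 3). Clspn, the claspin adaptor that relays the checkpoint signal from ATR to Chk1, had 0.267 and 0.515 CPM in the uninjured libraries, 1.87, 0.883 and 0.739 CPM at 1 day and 35.5, 34.4 and 43.2 CPM at 3 days. The 3 groups did not overlap. Its log2 fold change was 1.54 at 1 day (adjusted p = 0.192) and 6.56 at 3 days (adjusted p = 6.10e-05), both by edgeR's quasi-likelihood test. The latter was the largest fold change of the 45 genes.

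Timeless and Tipin form a complex that couples the helicase to the polymerases. Tipin had 3.37 and 1.75 CPM in the uninjured libraries, 1.25, 0.963 and 2.03 CPM at 1 day and 10.9, 14.97 and 17.6 CPM at 3 days, and its fold change on the log2 scale was 2.50 (SE 0.61, adjusted p = 0.0379) by edgeR's quasi-likelihood test. The call was lost when any uninjured or 3 day library was left out and with library size scaling (adjusted p up to 0.331 with a library left out). The Tipin call was also lost with the replicate number added to the fit. Timeless had 10.6 and 6.18 CPM uninjured, 14.7, 4.33 and 10.2 CPM at 1 day, and 24.5, 26.2 and 28.5 CPM at 3 days. Against uninjured it did not pass edgeR's quasi-likelihood test at 3 days, whereas DESeq2 and limma-voom called it. Against 1 day it rose by 1.44 log2 units (SE 0.42, adjusted p = 0.0403). That call was lost with library size scaling and without 1 day replicate 2 or 3 or any 3 day library (adjusted p up to 0.144).

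Among the genes that rebuild chromatin and its methylation behind the fork 3 of 4 rose at 3 days, beside 2.49% of all tested genes. Chaf1a is among the 3 and passed the low count filter only with its 3 day libraries. The summed level of the 4 was 37.8 ± 2.09 CPM uninjured (SD, n = 2), 48.9 ± 3.79 CPM at 1 day (SD, n = 3) and 189.6 ± 29.3 CPM at 3 days (SD, n = 3). Uhrf1, which reads hemimethylated DNA and recruits the maintenance methyltransferase, had 1.66 and 4.48 CPM in the uninjured libraries, 13.9, 5.46 and 6.47 CPM at 1 day and 60.8, 59.1 and 52.5 CPM at 3 days. Its log2 fold change was 1.48 (SE 0.47, adjusted p = 0.132) at 1 day and 4.22 (SE 0.52, adjusted p = 0.000415) at 3 days by edgeR's quasi-likelihood test. The 3 groups did not overlap, and without uninjured replicate 2 the log2 fold change was 2.37 at 1 day and 5.11 at 3 days. Dnmt1, the maintenance methyltransferase, had 35.6 and 29.5 CPM in the uninjured libraries, 31.1, 45.2 and 39.9 CPM at 1 day and 91.8, 94.7 and 139 CPM at 3 days. It rose by 1.74 log2 units (SE 0.26, adjusted p = 0.00199) at 3 days, and both 3 day calls held with each library left out.

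Chaf1a and Chaf1b are subunits of chromatin assembly factor 1, which deposits histones on new DNA. Chaf1a had 0.534 and 0.464 CPM in the uninjured libraries, 0.312, 1.12 and 0.308 CPM at 1 day and 11.3, 7.74 and 13.8 CPM at 3 days, and its fold change on the log2 scale was 4.43 (SE 0.84, adjusted p = 0.00924) at 3 days by edgeR's quasi-likelihood test. The gene passed the low count filter only through its 3 day libraries, and 4648 of its 8854 exonic bases overlap Ubxn6 on the opposite strand. Its call was lost without either uninjured library or 3 day replicate 3 (adjusted p up to 0.143). Chaf1b had 1.50 and 1.91 CPM uninjured, 0.156, 1.20 and 1.48 CPM at 1 day, and 8.63, 11.2 and 17.99 CPM at 3 days. At 3 days against uninjured it did not pass edgeR's quasi-likelihood test, whereas DESeq2, limma-voom and edgeR with no filter called it. It rose by 3.71 log2 units (SE 0.71, adjusted p = 0.00422) against 1 day.

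**Figure D2:**
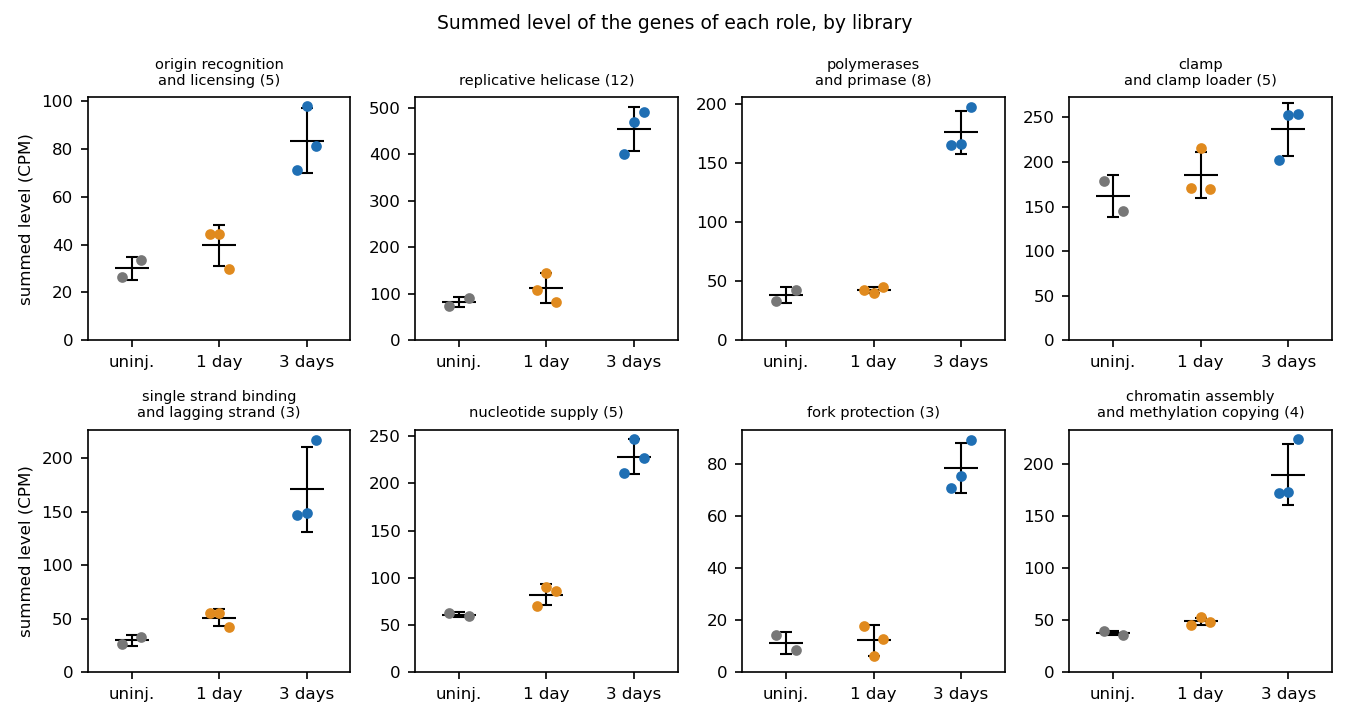
Summed level in CPM (vertical axis, from 0) of the genes of each of 8 roles, with a point per library in the uninjured, 1 day and 3 day groups and the group mean and standard deviation; the number of genes is in each panel's title. The 3 day points lie above the others in 7 roles, and in the clamp and clamp loader panel they reach into the range of the 1 day libraries.

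**Figure D3:**
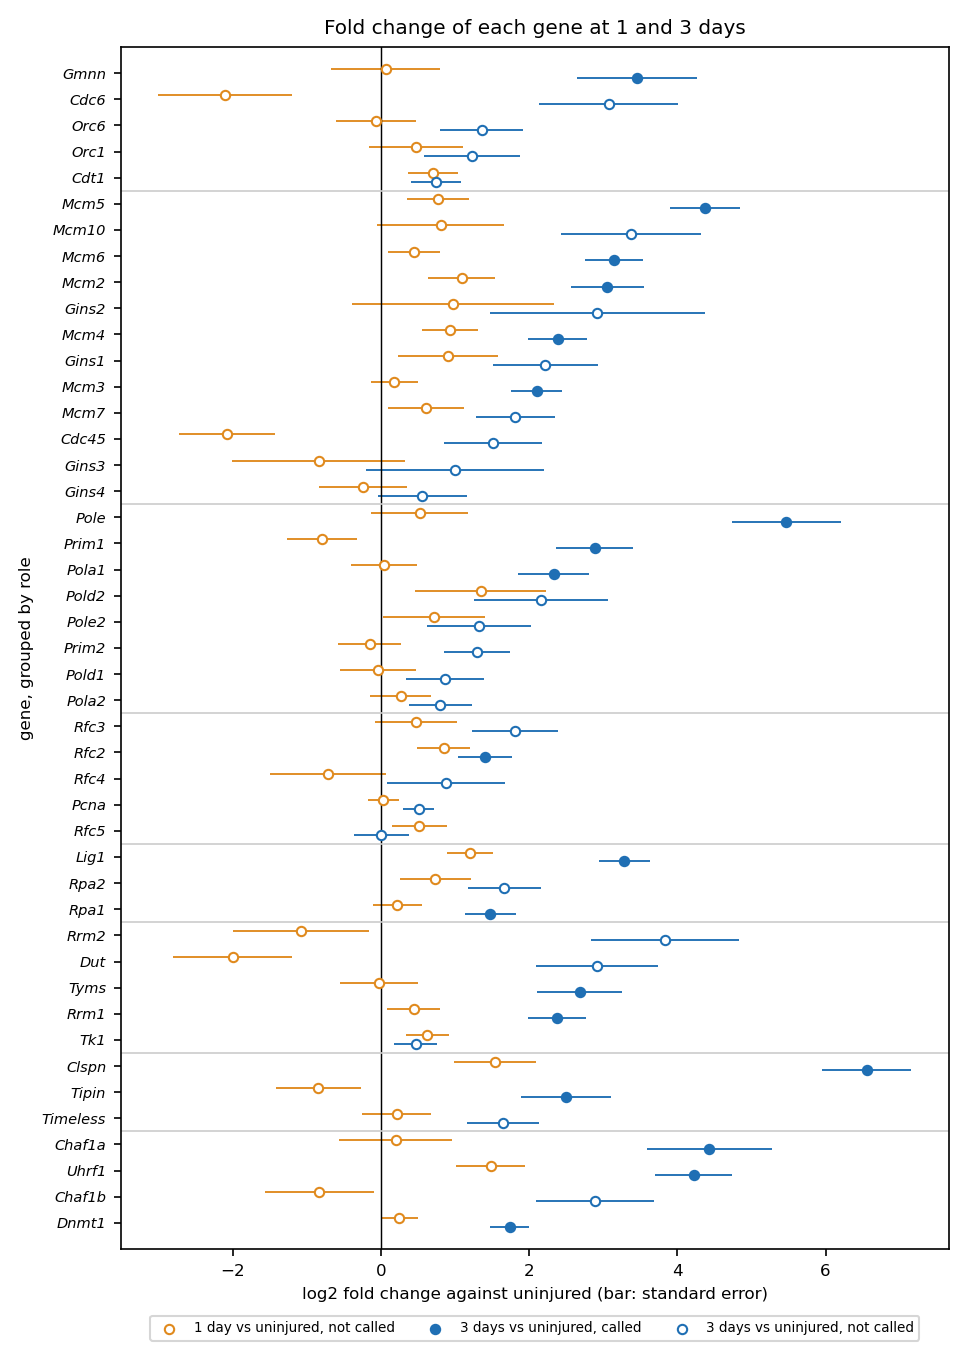
Log2 fold change against uninjured (horizontal axis) of each of the 45 genes, grouped by role, at 1 day (orange) and 3 days (blue), with standard errors as bars. Filled points passed the test at an adjusted p under 0.05, which 19 genes did at 3 days and 0 at 1 day.

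The listed subunits of a complex were compared per kilobase of exon, because a longer transcript can give more counts. Exons were merged over all annotated transcripts of a gene, and whether counts followed this length was not tested. In the Mcm2 to Mcm7 ring the uninjured levels ran from 0.650 ± 0.0483 CPM per kb for Mcm5 to 6.53 ± 0.840 CPM per kb for Mcm3 (SD, n = 2), a ratio of 10.1. At 3 days they ran from 5.87 ± 1.33 CPM per kb for Mcm7 to 28.1 ± 3.34 CPM per kb for Mcm3 (SD, n = 3), a ratio of 4.78. The ratio at 1 day was 6.65. Mcm5 went from the lowest subunit of the ring in uninjured libraries to 13.5 ± 1.82 CPM per kb at 3 days.

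The order of subunits in other complexes differed between groups. For polymerase epsilon, Pole lay below Pole2 in uninjured libraries, at 0.119 ± 0.0468 against 0.805 ± 0.278 CPM per kb (SD, n = 2). At 3 days Pole lay above it, at 5.32 ± 1.33 against 2.01 ± 0.510 CPM per kb (SD, n = 3). For ribonucleotide reductase, Rrm1 and Rrm2 had uninjured levels of 1.30 ± 0.539 and 1.29 ± 1.61 CPM per kb, which differ by less than the spread of Rrm2. At 3 days they had 6.77 ± 0.280 and 18.4 ± 3.28 CPM per kb. Among Rfc2 to Rfc5, the listed subunits of the clamp loader, Rfc5 was highest each time. The ratio of the highest to the lowest of them was 7.47 in uninjured libraries, 7.95 at 1 day and 2.13 at 3 days. These orders are descriptions with no test, and differences in how well transcripts are captured were not tested.

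**Figure D4:**
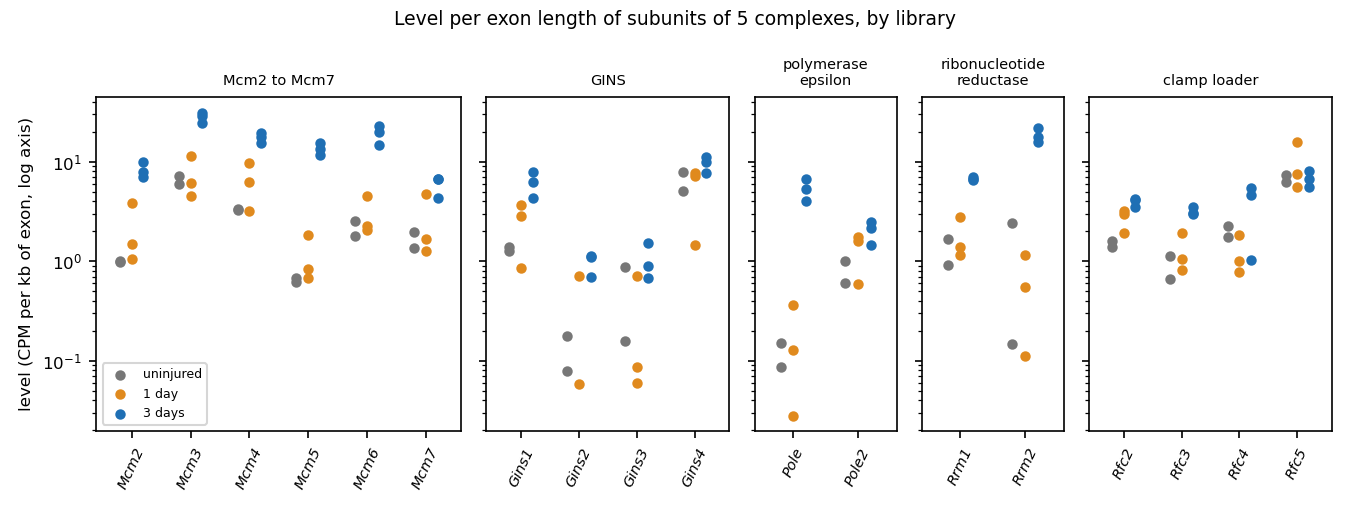
Level per exon length (CPM per kb, log axis) of the subunits of 5 complexes in each library, grey for uninjured, orange for 1 day and blue for 3 days. Pole lies below Pole2 in the grey points and above it in the blue points; the 1 day library of Gins2 at 0 cannot be drawn on the log axis.

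At 1 day 0 of the 45 genes rose against uninjured by edgeR's quasi-likelihood test, beside 0.61% of all tested genes, and 0 fell, beside 1.16%. At an unadjusted p under 0.05, 7 were higher (Lig1, Uhrf1, Clspn, Mcm4, Mcm2, Rfc2 and Tk1) and 3 lower (Cdc45, Cdc6 and Dut), beside 1270 higher and 1299 lower of all 17390 tested. DESeq2 called Lig1 and Uhrf1 as rising and Cdc45 as falling, limma-voom called 0, and without 1 day replicate 3 edgeR called Lig1 and Mcm4 as rising and Cdc6 as falling. The fold changes were positive for 31 genes and negative for 14, with a median of 0.27 against 0.06 over all tested genes. Over all genes 106 rose and 202 fell at 1 day, a split that was 46 and 233 when only library size was used for scaling.

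Without regard to the test, 7 genes had every 1 day library above every uninjured library, which is 7 of 45 beside 14.3% of all tested genes. They were Cdt1, Clspn, Lig1, Mcm2, Rfc2, Rpa2 and Uhrf1. In 5 genes every 1 day library lay below, beside 15% of all tested genes, and these were Cdc45, Cdc6, Chaf1b, Dut and Prim1. Both shares are near the background. The 1 day libraries had fewer genes with a count, 18035 to 20220 against 21663 and 22395 in the uninjured libraries, and the part of this in the low values was not tested.

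From 1 day to 3 days 26 of 45 genes rose by edgeR's quasi-likelihood test, beside 5.24% of all tested genes, and 0 fell, beside 5.75%. Chaf1a, which passed the low count filter only with the 3 day libraries, is among the 26. No gene was lower at an unadjusted p under 0.05, and DESeq2 and limma-voom called 0 as falling. The median log2 fold change was 1.84, and 43 were positive, the exceptions being Rfc5 and Tk1. Cdt1, at 0.03, turned negative without 1 day replicate 3 or 3 day replicate 2, and Rfc5 turned positive without 1 day replicate 2. In 32 genes every 3 day library lay above every 1 day library, beside 16.1% of all tested genes. The comparisons of 3 days with uninjured and with 1 day share the 3 day libraries.

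Among the 45 genes the widest fitted steps from 1 to 3 days were those of Cdc6, Clspn, Pole, Dut and Rrm2. Cdc6 rose from 1 to 3 days by 5.17, Dut by 4.92 and Rrm2 by 4.92 on the log2 scale, next to 5.02 for Clspn and 4.94 for Pole. Without 1 day replicate 2 the step was 5.71 for Rrm2 and 6.03 for Pole, and without 1 day replicate 3 it was 8.40 for Cdc6. Mcm4 lost its call without 3 day replicate 3 (adjusted p = 0.0651, edgeR's quasi-likelihood test), and Rpa1 without 3 day replicate 1 or replicate 3 (up to 0.0800).

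Further genes of the pathway, which are outside the 46, were counted by 7 lists that hold 97 genes, of which 96 were tested. At 3 days 17 rose, beside 2.49% of all tested genes, and 0 fell, beside 0.983%, with a median log2 fold change of 0.73. Of the 96, 1 was lower at an unadjusted p under 0.05, and DESeq2 and limma-voom called 0 as falling. The count of 17 was 3 without either uninjured library, 7 without 3 day replicate 3, and 10 without 3 day replicate 1. At 1 day 0 rose and 0 fell by edgeR and by DESeq2, and an unadjusted p under 0.05 was reached by 5 higher and 5 lower genes of the 96, beside 1270 higher and 1299 lower of all 17390. From 1 to 3 days 25 rose, beside 5.24% of all tested genes, and 2 fell, beside 5.75%, the latter being Donson at −0.88 (adjusted p = 0.0169) and Shmt1 at −0.88 (adjusted p = 0.0377) in edgeR's quasi-likelihood test.

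Origin firing factors rose in 5 of 13 cases at 3 days, beside 2.49% of all tested genes. Ticrr, which loads Cdc45 with Topbp1, had 1.28 and 0.464 CPM in the uninjured libraries, 1.64, 2.73 and 2.34 CPM at 1 day and 29.6, 53.5 and 70.5 CPM at 3 days, and its fold change on the log2 scale was 5.87 (SE 0.58, adjusted p = 8.34e-05) by edgeR's quasi-likelihood test. Ccna2, the S phase cyclin A2, had 1.34 and 2.01 CPM in the uninjured libraries, 0, 0.802 and 1.42 CPM at 1 day and 74.1, 59.9 and 91.9 CPM at 3 days, with a value of 5.48 (SE 0.67, adjusted p = 0.000400) on the same scale. The Ccna2 library at 0 allows up to 0.234 CPM. Both genes stood clear at 3 days and held with each library left out, Ticrr at 6.75 without uninjured replicate 1. Topbp1 rose by 1.32 log2 units (SE 0.24, adjusted p = 0.00674) and Wdhd1, a fork adaptor of polymerase alpha, by 1.91 log2 units (SE 0.35, adjusted p = 0.00725). Topbp1 lost its call without either uninjured library or 3 day replicate 3 (adjusted p up to 0.0939), and Wdhd1 without either uninjured library (up to 0.148).

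Fork and clamp factors rose in 5 of 16 cases, beside the same 2.49%. Atad2, a chromatin ATPase, had 47.6 and 45.7 CPM in the uninjured libraries, 42.99, 46.6 and 40.7 CPM at 1 day and 119, 166 and 176 CPM at 3 days, and its fold change on the log2 scale was 1.72 (SE 0.22, adjusted p = 0.000545) by edgeR's quasi-likelihood test, a call that held with each library left out. Atad5, which unloads Pcna, rose by 1.95 log2 units (SE 0.34, adjusted p = 0.00523), a call lost without either uninjured library (adjusted p up to 0.0791). Asf1b, the histone chaperone that feeds chromatin assembly factor 1, rose by 5.69 log2 units (SE 1.14, adjusted p = 0.0120), and Esco2, the cohesin acetyltransferase, by 4.69 log2 units (SE 1.02, adjusted p = 0.0198). Both were at or below 2.03 CPM in every uninjured and 1 day library, and both lost their calls without either uninjured library or 3 day replicate 3, Esco2 also without 3 day replicate 1 or replicate 2 (adjusted p up to 0.125 and 0.202). Without uninjured replicate 1 and then 2 the fold change was 6.97 and 5.01 for Asf1b, and 6.10 and 3.97 for Esco2.

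Of the E2F family, its partners and the pocket proteins 4 of 13 rose, beside 2.49% of all tested genes. E2f1, an activating member, had 0.748 and 0.927 CPM uninjured, 2.41, 2.25 and 0.862 CPM at 1 day, and 14.7, 11.8 and 11.1 CPM at 3 days. E2f2, also activating, had 6.09 and 6.44 CPM uninjured, 5.92, 2.65 and 4.19 CPM at 1 day, and 40.01, 21.96 and 30.7 CPM at 3 days. E2f8, a repressive member that acts late in S phase, had 4.17 and 3.35 CPM uninjured, 1.40, 7.46 and 0.370 CPM at 1 day, and 34.8, 57.6 and 51.9 CPM at 3 days. Their log2 fold changes at 3 days were 3.89, 2.30 and 3.68, with adjusted p = 0.00704, 0.0110 and 0.0420 in edgeR's quasi-likelihood test. Tfdp1, the dimer partner of activating members, rose by 1.79 log2 units (SE 0.44, adjusted p = 0.0383). None of the 4 calls held without uninjured replicate 1 or without uninjured replicate 2, with adjusted p up to 0.138, 0.160, 0.435 and 0.278. E2f8 and Tfdp1 also lost theirs when any 3 day library was left out, E2f8 without 1 day replicate 1, and E2f2 without 3 day replicate 1 or replicate 3.

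Genes of precursor supply outside the 46 were counted in 2 lists. In the de novo purine and pyrimidine list 2 of 16 rose, beside 2.49% of all tested genes, with a median log2 fold change of 0.67, and in the other deoxynucleotide genes 0 of 11, with 3 higher at an unadjusted p under 0.05, 1 called by DESeq2 and 0 by limma-voom. Cad, which starts pyrimidine synthesis, had 7.11 and 8.96 CPM uninjured, 11.1, 12.4 and 8.99 CPM at 1 day, and 91.7, 29.5 and 27.03 CPM at 3 days, and 3 day replicate 1 was far above the others of its group. Its rise of 2.62 log2 units (SE 0.50, adjusted p = 0.00970) lost its call without that library, where it was 1.81, or without either uninjured library (adjusted p up to 0.146). Paics, of purine synthesis, rose by 1.26 log2 units (SE 0.30, adjusted p = 0.0338), a call lost when any uninjured or 3 day library was left out (up to 0.242, edgeR's quasi-likelihood test).

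Other subunits of the same complexes rose in 0 of 12 cases by edgeR's quasi-likelihood test, with 4 higher at an unadjusted p under 0.05, 1 called by DESeq2 and 0 by limma-voom. Their median log2 fold change was 0.63. Among specialised polymerases and paralogs 1 of 15 rose, beside 2.49% of all tested genes, with a median of −0.09. This was Polq, the end-joining polymerase theta, at 1.39 and 0.567 CPM uninjured, 0, 0.883 and 0.370 CPM at 1 day, and 20.7, 16.2 and 22.03 CPM at 3 days, up by 4.32 log2 units (SE 0.87, adjusted p = 0.0124). The library at 0 allows up to 0.234 CPM. The call of Polq was lost without either uninjured library, 3 day replicate 1 or replicate 3 (adjusted p up to 0.134), and it was 5.09 without uninjured replicate 1.

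**Figure D5:**
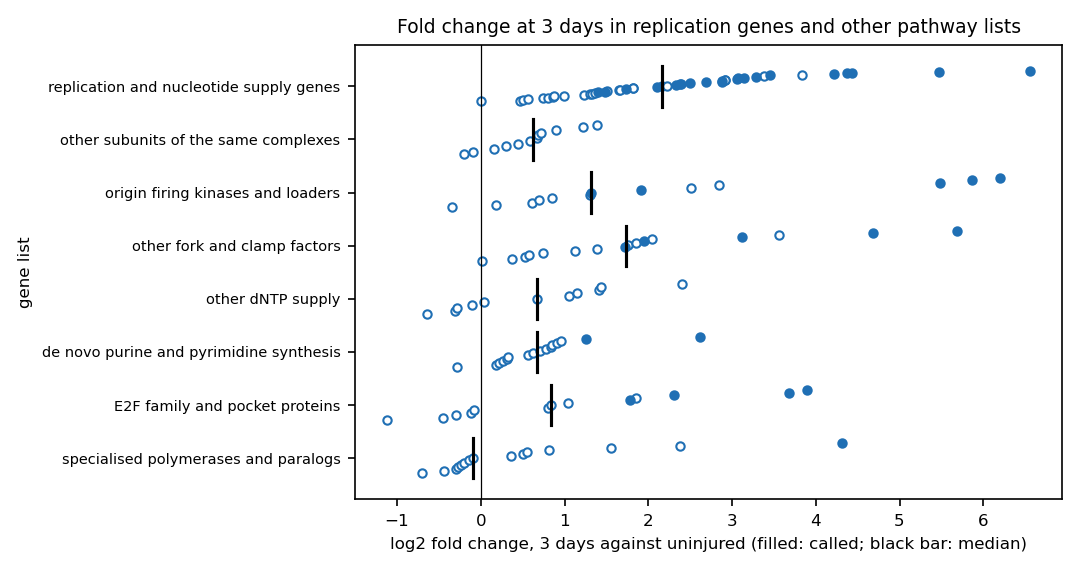
Log2 fold change at 3 days against uninjured (horizontal axis) of single genes in the replication and nucleotide supply genes and in 7 further pathway lists, with a point per gene, filled where the test was passed, and a black bar at the median. The median is 2.16 in the replication and nucleotide supply genes, 1.74 in other fork and clamp factors, 1.32 in origin firing factors and −0.09 in specialised polymerases and paralogs.

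Markers of other cells that can divide or adhere to the beads are set beside these results. Oligodendrocyte precursor markers (5 of 6 tested, 0 rising and 0 falling at 3 days) summed to 24.0 to 34.9 CPM uninjured, 19.5 to 36.7 CPM at 1 day and 42.9 to 49.9 CPM at 3 days. The 3 day sums thus lay above all others. Of the 5 tested, 1 was higher at 3 days at an unadjusted p under 0.05 by edgeR's quasi-likelihood test (log2 fold change 0.93). The other 4 had negative fold changes, and Olig2 had 0 counts in all 1 day and 3 day libraries. Of the 8 lymphocyte markers 6 had a row in the table, and none of these had counts enough to be tested. Neutrophil markers (5 of 6 tested, 0 rising and 0 falling at 3 days) summed to 35.8 to 44.2 CPM uninjured, 49.5 to 137 CPM at 1 day and 17.7 to 35.4 CPM at 3 days. Monocyte markers (3 of 5 tested, 0 rising and 0 falling at 3 days) summed to 7.37 to 14.6, 12.5 to 32.9 and 5.66 to 14.1 CPM in the same order. Endothelial markers (6 of 6 tested, 4 falling at 1 day, beside 1.16% of all tested genes, and 0 rising or falling at 3 days) summed to 916 to 1103, 395 to 515 and 753 to 819.5 CPM. Choroid plexus markers (4 of 4 tested, 2 falling at 1 day, beside the same 1.16%, and 0 rising or falling at 3 days) summed to 496 to 5251, 0.467 to 55.5 and 599.8 to 3391 CPM. From 1 to 3 days 4 endothelial and 3 choroid plexus markers rose, beside 5.24% of all tested genes. In that comparison 1 neutrophil marker fell, beside 5.75%, and 0 precursor or monocyte markers were called. The part of any of these cells in the levels of the replication genes was not tested.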

How the data were processed

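RNA of CD11b-selected microglia was sequenced in 8 libraries after linear amplification, per the labels' protocols. The authors deposited raw counts per Ensembl gene. FastQC, STAR, HTSeq and build mm9 are named in the submitters' processing notes. Tool versions, the annotation counted and whether counting used strand were not given in the sources used here. Symbols, exon lengths and overlaps came from GENCODE M21 on another build than mm9, so no coordinates of the counts are printed. Identifiers without a symbol held 0.127% of the counts.

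The tests ran in R 4.3.3 with edgeR 4.0.16 (low counts removed by filterByExpr, TMM, glmQLFit with robust estimation, glmQLFTest) with all 8 libraries in 1 fit, 1 mean per group and Benjamini-Hochberg adjustment. DESeq2 1.42.0, limma-voom (limma 3.58.1), other scalings and filters (none, or at least 10 counts in 3 libraries), the libraries of the compared groups only, a replicate block and leaving out each library were alternatives. The edgeR procedure was also run on simulated counts, and the outcome is not given here. Libraries of a group differed beyond sampling noise. Exons of 15 of the 45 genes overlap another gene, 3 on the same and 13 on the opposite strand. Zero counts allow up to 3 counts, which covers counting error only.

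The genes and lists were chosen with earlier results of these data known. Per role, up to 3 rising genes with the smallest p at 3 days, and any gene that passed a test, were given with test values. From each further list up to 4 rising genes with the smallest p, and any that fell, were named. A marker gene and the sum that holds it are not reported here.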

Additional observations from a re-analysis of the deposited data

Results flagged for a closer look

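For 26 of the 45 genes the fold change against uninjured differed between 1 and 3 days by edgeR's quasi-likelihood test of 3 days against 1 day, with Benjamini-Hochberg adjustment over all tested genes. These are the same 26 genes and the same test as in the comparison of 3 days with 1 day above. Of all tested genes 5.24% rose and 5.75% fell in it. The difference, 3 days minus 1 day on the log2 scale, was positive in all 26 and ran from 1.26 to 5.17. Groups of 3 or fewer libraries were not examined for outlying libraries.

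In the licensing and helicase genes the difference was 5.17 for Cdc6, 3.39 for Gmnn, 3.60 for Mcm5, 3.58 for Cdc45, 2.70 for Mcm6, 2.57 for Mcm10, 1.96 for Mcm2, 1.92 for Mcm3 and 1.45 for Mcm4. In the polymerases and primase it was 4.94 for Pole, 3.68 for Prim1, 2.29 for Pola1 and 1.45 for Prim2. On the lagging strand it was 2.09 for Lig1 and 1.26 for Rpa1. In nucleotide supply it was 4.92 for Dut, 4.92 for Rrm2, 2.70 for Tyms and 1.94 for Rrm1. In fork protection it was 5.02 for Clspn, 3.34 for Tipin and 1.44 for Timeless. In chromatin assembly it was 4.23 for Chaf1a, 3.71 for Chaf1b, 2.74 for Uhrf1 and 1.49 for Dnmt1.

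Single 1 day libraries moved some of these values by more than 1.5 times in fold. Without 1 day replicate 2 the difference was 5.10 for Chaf1a, 4.09 for Mcm10, 2.69 for Mcm2, 6.03 for Pole and 5.71 for Rrm2. Without 1 day replicate 3 it was 8.40 for Cdc6 and 3.34 for Tyms. Mcm4, Mcm10, Prim2, Rpa1 and Timeless did not pass the test with some of the libraries left out, and the highest adjusted p among these refits was 0.185 for Mcm10 by edgeR's quasi-likelihood test.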

How the results depend on the processing

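The number of replication genes rising at 3 days against uninjured, 19, was 30 with DESeq2 and with the libraries of those groups only, and 9 to 26 with 1 library left out. At 1 day it was 0, against 2 rising and 1 falling with DESeq2, 1 rising with no filter, and 0 to 2 rising and 0 to 1 falling with 1 library left out. From 1 to 3 days, 26 became 21 to 27 with 1 library left out, and 0 fell throughout. In the other pathway lists 17 rising at 3 days became 27 with the libraries of those groups only and 3 to 19 with 1 library left out. From 1 to 3 days 25 rising became 17 to 28, and the 2 falling became 1 with the libraries of those groups only, 1 with the replicate block and 0 to 2 with 1 library left out. The uninjured summed level of 452 CPM was 482 CPM with library size scaling, 460.0 CPM with relative log expression scaling and 459 CPM without mitochondrially encoded genes.

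Fold changes reversed in sign for Rfc5 at 3 days against uninjured (−0.0303 with DESeq2, −0.0302 with relative log expression scaling, −0.14 with library size scaling, −0.0516 with no filter, −0.14 to 0.12 with 1 library left out), for Rfc5 from 1 to 3 days (−0.79 to 0.0416) and for Cdt1 from 1 to 3 days (−0.16 to 0.20). The cause was not tested. With the replicate number as a replicate block, 16 genes rose at 3 days, 25 from 1 to 3 days (Rrm2 not among them) and 0 at 1 day. Same-numbered libraries did not deviate together (correlations of −0.07 to 0.09). The deviations of the uninjured libraries mirror each other, so these values cannot decide whether same-numbered libraries were prepared together. Over all genes the count rising at 3 days, 433, was 818 with DESeq2 and 926 with the libraries of those groups only, and that falling, 171, was 490 and 419. It was 268 with limma-voom, 299 with no filter and 83 with the replicate block. At 1 day the 106 rising and 202 falling were 322 and 494 with DESeq2 and 25 and 85 with the libraries of those groups only, and 205 rose with limma-voom and 46 with library size scaling. Without uninjured replicate 1, 97 rose and 11 fell at 3 days, and 11 rose and 28 fell at 1 day.

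The uninjured group had 2 libraries, and the biological coefficient of variation over all libraries was 51.1%.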

Other observations

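Other sequence words were counted in the same RefSeq windows. CCAAT, the core of the NF-Y element (both strands), was in 26 of 43 windows of the replication genes (60.5%), against 37.1% of the windows of tested genes and 37.4% of all windows. The cell cycle homology region words TTTGAA and TTCGAA (both strands), which mark many late cell cycle promoters, were in 7 of 43 windows (16.3%), against 14.4% and 19.2%. These counts describe letters in a window, with no test.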
